A study of Mus musculus with 6 samples.

Results

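Hepcidin, the peptide hormone of iron balance, is described here with the bone morphogenetic protein (BMP) signal that drives its gene in hepatocytes and the genes that sense, take up, store and export iron. The genes were chosen by name: Hamp, Bmp2, Bmp6, Id1, Smad7, Tfr2, Tfrc, Hfe, Slc40a1 and Fth1, which are 10 of the 22609 genes listed. All 10 were found, Tfr2 under its older symbol Trfr2, and all 10 passed the filter on low counts, as did 12522 genes in all. RNA of adult liver was sequenced from C57BL/6 mice, 3 samples with Igfbp7 knocked out (Igfbp-7-/-, made with Cre-loxP) and 3 wild type samples. Igfbp7 encodes a protein that cells secrete and that binds insulin-like growth factors. The sources used here do not give the Cre driver, sex, exact age, diet, iron status or time of collection. Whether each sample is a different mouse is not stated, so p-values measure the spread between these samples, which may be technical. Below, a liver means a sample, which need not be a separate mouse.

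In the liver, sinusoidal endothelial cells secrete BMP2 and BMP6, which bind receptors and the co-receptor hemojuvelin on hepatocytes and lead to phosphorylation of SMAD1, SMAD5 and SMAD8. With SMAD4 these switch on Hamp together with Id1, Smad6 and Smad7, the last 2 of which encode inhibitors of the same signal. HFE and transferrin receptor 2 report transferrin-bound iron to this pathway, and inflammation acts on Hamp through STAT3. Hepcidin then blocks and degrades ferroportin, the product of Slc40a1, so that less iron leaves cells.

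CPM are counts scaled to library size, with TMM factors between libraries. The libraries held 18912701 to 22419411 gene counts in knockout livers and 16712568 to 21478524 in wild type livers. Igfbp7 averaged 0.263 ± 0.168 CPM in knockout livers and 72.4 ± 10.1 CPM in wild type livers (SD, n = 3 each), in keeping with the labels. Hepatocyte markers were high throughout, with the CPM of 10 markers summing to 101731 to 124070 in knockout livers and 94760 to 113830 in wild type livers, and none at 0. Wild type replicate 1 stood apart in its clock genes. Its clock score, which subtracts the mean log2 CPM of morning clock genes from the mean of evening ones, was 0.14, against 3.64 to 4.22 in knockout livers and 2.92 and 3.39 in the other wild type livers. The score also followed genotype, with every knockout liver above every wild type liver, and all 9 evening genes had positive log2 fold changes (median 0.82). A fit with the score as a covariate therefore cannot tell clock phase apart from genotype. Of the cell type markers, those of Kupffer cells and macrophages differed most between the genotypes, and their values stand beside ferroportin.

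Across the 10 genes, no transcript passed the threshold of an adjusted p under 0.05 in edgeR's quasi-likelihood test over all genes. The BMP target genes Id1 and Smad7 came closest, with fitted levels 1.69 and 1.60 times as high in knockout as in wild type livers. Hamp itself, the BMP ligands, the iron sensors and the genes of iron storage had intervals that included no difference. Over all genes the same test called 0.216% (0.128% higher, 0.0878% lower), so a count of 0 among 10 genes is near that background. At an unadjusted p under 0.05, 2 of the 10 were higher in knockout livers, where 8.10% of all genes were, and 0 were lower, where 7.35% were. In either direction 15.4% of all genes passed. DESeq2 called 1 of the 10, Smad7, where it called 3.50% of all genes, and limma-voom called 0. In 4 of the 10 (Bmp2, Id1, Smad7 and Slc40a1) every knockout value lay above every wild type value, and in 0 every one lay below. For Bmp2 this rested on a near tie under TMM scaling, 22.634 CPM in knockout replicate 1 against 22.633 CPM in wild type replicate 2. Over all genes 10.7% were separate with knockout higher, 10.1% with knockout lower and 20.7% in either direction. The median log2 fold change of the 10, knockout over wild type, was 0.22, beside 0.0013 over all genes tested.

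**Figure D1:**
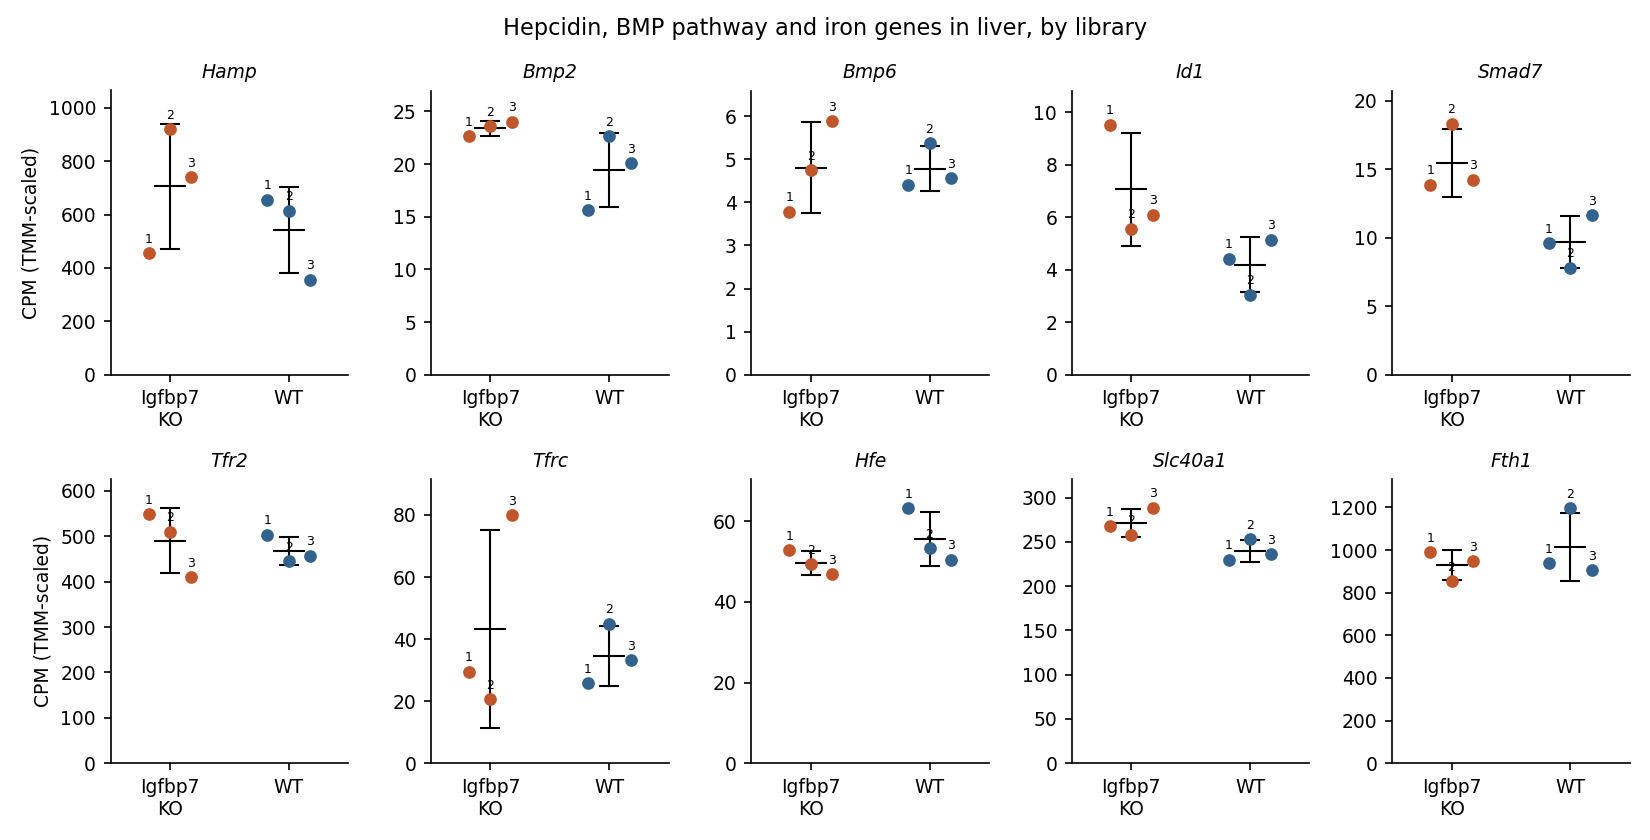
TMM-scaled CPM of the 10 genes in each library, knockout left of wild type, with replicate numbers, and bars for the mean ± SD (n = 3 each), each panel with its own axis from 0. Knockout and wild type points separate for Id1, Smad7 and Slc40a1, and a point at 79.8 CPM in knockout replicate 3 sets the spread of Tfrc. For Bmp2 the nearest points, knockout replicate 1 and wild type replicate 2, are level at 22.6 CPM.

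Levels were set side by side per length, as CPM per kilobase of the longest protein-coding transcript in GENCODE M21. Hamp stood highest, at 1721 ± 570 in knockout livers and 1323 ± 395 in wild type livers (SD, n = 3 each). Fth1 followed at 623 ± 47.0 and 679 ± 106 (knockout, then wild type), Tfr2 at 159 ± 23.4 and 152 ± 10.1, and Slc40a1 at 80.6 ± 4.66 and 71.2 ± 3.58. The other 6 lay below 16 in both genotypes, in the order Hfe, Tfrc, Bmp2, Id1, Smad7 and Bmp6, and the order of all 10 was the same in both. Bmp6 was lowest, at 1.34 ± 0.293 in knockout livers and 1.33 ± 0.145 in wild type livers. Neighbours whose mean ± SD overlapped were Tfrc with Bmp2 and Bmp2 with Id1 in both genotypes, Hfe with Tfrc in knockout livers, and Id1 with Smad7 in wild type livers.

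Hamp encodes hepcidin, and in the mouse it has a near copy beside it on chromosome 7, Hamp2, whose product is not known to lower iron as hepcidin does. Reads that match both genes may be left out as placed at several positions, so both can be counted low.

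Hamp did not differ beyond the spread between samples. It had 456, 919 and 741 CPM in knockout replicates 1 to 3, against 656, 615 and 357 CPM in wild type replicates 1 to 3. The groups overlapped, with knockout replicate 1 below the higher wild type livers. The log2 fold change was 0.38 ± 0.29 (SE, edgeR adjusted p = 0.576), with a 95% interval from -0.27 to 1.03, which spans 0.829 to 2.04 times the wild type level. With 1 library left out it ran from 0.14 (without knockout replicate 2) to 0.61 (without knockout replicate 1, unadjusted p = 0.0428, edgeR adjusted p = 0.308). Leaving out wild type replicate 3 gave 0.15, leaving out replicate 1 of that genotype 0.54, and the clock score as a covariate 0.63, and none of these passed the threshold. Hamp2 varied more than Hamp, with 8.62, 40.4 and 41.8 CPM in knockout livers and 4.20, 31.9 and 13.7 CPM in wild type livers. Its counts amounted to 1.89%, 4.40% and 5.64% of those of Hamp in knockout replicates 1 to 3 and to 0.640%, 5.19% and 3.85% in wild type replicates 1 to 3. The lowest share stood in wild type replicate 1, the liver set apart by its clock genes. With the 2 genes' counts summed the log2 fold change was 0.40 ± 0.29 (SE, edgeR adjusted p = 0.562).

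The upstream sequences of both genes are printed because that of Hamp carries elements through which BMP and STAT3 signals reach hepcidin. They are the 150 bases before the RefSeq start in GRCm38.p6, minus strand, chr7:30944030-30944179 for Hamp and chr7:30924182-30924331 for Hamp2. Capitals mark a BMP response element (GGCGCC) and a STAT site (TTCNNNGAA) in Hamp and the bases aligned with them in Hamp2.
Hamp: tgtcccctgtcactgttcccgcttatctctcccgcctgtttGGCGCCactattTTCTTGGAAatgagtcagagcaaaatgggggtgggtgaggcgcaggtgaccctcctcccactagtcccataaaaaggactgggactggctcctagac
Hamp2: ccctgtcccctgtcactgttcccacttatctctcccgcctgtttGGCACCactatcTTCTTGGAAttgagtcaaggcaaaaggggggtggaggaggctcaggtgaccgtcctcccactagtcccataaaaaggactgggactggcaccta
Over 247 aligned bases of the 250 upstream, 91.9% were identical. The STAT site read the same in both, whereas the BMP element of Hamp met the substitution G4A in Hamp2, counted from the first base of the element. Of 32851 promoters in the RefSeq table, 9.59% held GGCGCC in the 250 bases upstream and 7.02% held TTCNNNGAA, on either strand. Promoters were listed for 6 of the 10 genes (Hamp, Bmp6, Tfr2, Tfrc, Hfe and Fth1), some with several starts. Among these GGCGCC also stood upstream of Tfrc and the STAT site of no other. Also searched were an E-box (CACGTG, in 6.02% of promoters), found upstream of Bmp6, and a TATA box (TATAAA, in 12.4%), found upstream of a start of Fth1. A match describes letters in a window and is no evidence of binding in these livers.

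**Figure D2:**
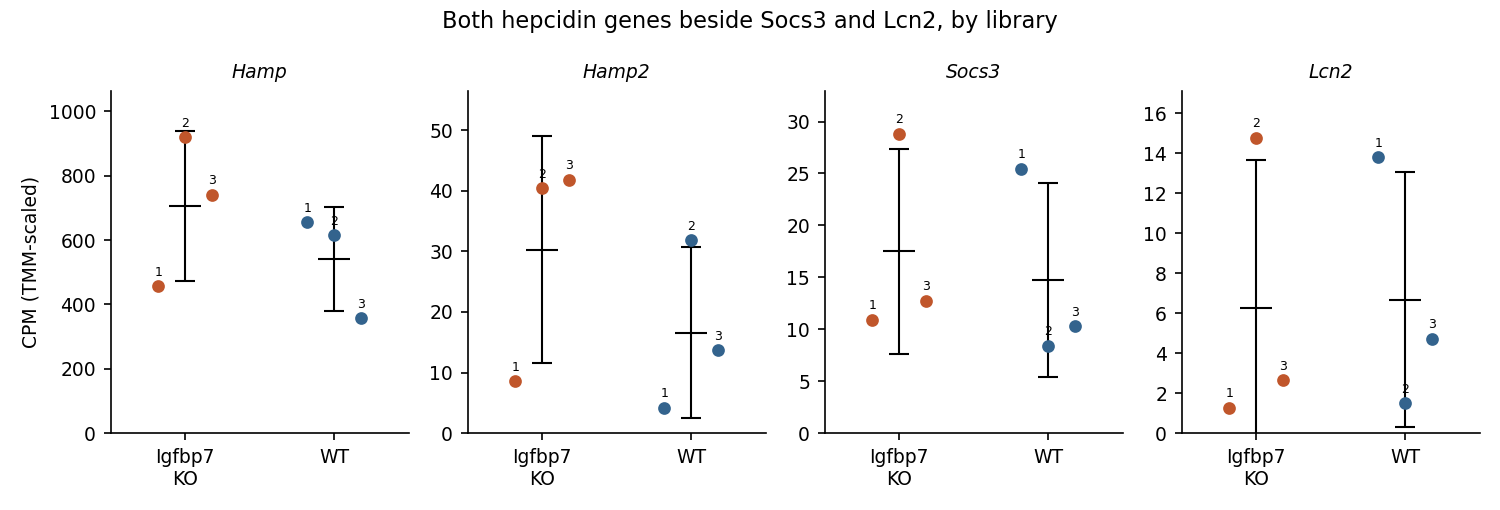
TMM-scaled CPM of Hamp, Hamp2, Socs3 and Lcn2 in each library, knockout left of wild type, with replicate numbers and bars for the mean ± SD (n = 3 each, bars cut at 0). Knockout replicate 2 and wild type replicate 1 are the highest of their genotype for Hamp, Socs3 and Lcn2, whereas Hamp2 is highest in knockout replicate 3 and wild type replicate 2. Among wild type livers the lowest is replicate 3 for Hamp and replicate 2 for Socs3 and Lcn2.

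The inflammatory branch showed no difference by genotype past the threshold. Of 10 tested genes of the 11 in the list for inflammatory input to hepcidin, edgeR called 0, with 0 at an unadjusted p under 0.05 and 0 called by DESeq2, and their median log2 fold change was 0.032. Over all genes edgeR called 0.216% and DESeq2 3.50%, so 0 calls among 10 genes is near that background, and 15.4% had an unadjusted p under 0.05. Il6 itself was barely counted, at no more than 0.098 CPM in any liver, and was chosen after its values were seen. Socs3, a feedback inhibitor that STAT3 induces, stood at 10.9, 28.8 and 12.8 CPM in knockout livers and 25.5, 8.42 and 10.3 CPM in wild type livers. Lcn2, an acute phase gene listed with iron handling and chosen after its values were seen, stood at 1.28, 14.8 and 2.65 CPM in knockout livers and 13.8, 1.5 and 4.73 CPM in wild type livers. Hamp, Socs3 and Lcn2 were each highest, within their genotype, in knockout replicate 2 and wild type replicate 1. Each was lowest of the knockout livers in replicate 1. Among wild type livers Hamp was lowest in replicate 3, at 357 CPM against 656 and 615, whereas Socs3 and Lcn2 were lowest in replicate 2. Il6ra was highest in neither knockout replicate 2 nor wild type replicate 1, with 92.6, 49.8 and 90.0 CPM in knockout livers and 35.0, 56.6 and 99.5 CPM in wild type livers. Stat3 had 150, 117 and 114 CPM in knockout livers and 156, 126 and 138 CPM in wild type livers. Stat3, at 127 and 140 CPM on average in knockout and wild type livers, Il6ra, the IL-6 receptor, at 77.5 and 63.7 CPM, and Creb3l3, a hepatocyte factor that also acts on Hamp, at 392 and 365 CPM, did not pass (edgeR adjusted p = 0.657, 0.761 and 0.793 in that order).

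For likeness to Hamp, the root mean square difference of mean-centred log2 CPM over the 6 libraries was taken across 7785 other genes with a mean of at least 10 CPM. The 3 closest were Gda at 0.15, Sdr42e1 at 0.17 and Fam73b at 0.17. Gda, a guanine deaminase, stood at 21.5, 38.9 and 39.1 CPM in knockout livers and 28.9, 24.9 and 18.7 CPM in wild type livers. Its lowest livers were knockout replicate 1 and wild type replicate 3, as for Hamp. Since these genes were picked from 7785 for closeness to Hamp over the same 6 libraries, a shared order follows from the choice and is a description only.

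The ligands Bmp2 and Bmp6, which endothelial cells of the sinusoid supply, both had intervals that included no difference. Bmp2 had 22.6, 23.6 and 24.0 CPM in knockout livers, against 15.6, 22.6 and 20.1 CPM in wild type livers. The groups did not overlap, though knockout replicate 1 and wild type replicate 2 were nearly level. For Bmp2 the log2 fold change was 0.27 ± 0.14 (SE, edgeR adjusted p = 0.400), with a 95% interval from -0.05 to 0.58. It was 0.13 without wild type replicate 1 and 0.024 with the clock score as a covariate. Bmp6 had 3.79, 4.75 and 5.89 CPM in knockout livers, against 4.41, 5.38 and 4.56 CPM in wild type livers, on 79 to 120 counts per library. The groups overlapped throughout, and the log2 fold change was 0.0046 ± 0.20 (SE, edgeR adjusted p = 0.995), with a 95% interval from -0.45 to 0.46. The gene overlaps 4930579J19Rik and Txndc5 in GRCm38.p6, so reads from a stretch they share cannot be assigned with certainty.

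Sinusoidal endothelial markers, taken as 12 genes, gave summed CPM of 682 to 749 in knockout livers and 722 to 763 in wild type livers, with none at 0. Of the 12, edgeR, DESeq2 and limma-voom called 0, 0 were higher and 1, Cdh5, named after its values were seen, was lower at an unadjusted p under 0.05, and their median log2 fold change was -0.10. Over all genes edgeR called 0.216% and DESeq2 3.50%, and 8.10% were higher and 7.35% lower at that unadjusted p. The part of endothelial cells in the Bmp2 values was not tested. In whole tissue, fewer cells of a type and less RNA per cell cannot be told apart. In the list of other ligands 7 of 8 were tested, edgeR and DESeq2 called 0, and 0 passed at an unadjusted p under 0.05. Gdf2, which encodes BMP9, the ligand made by stellate cells, averaged 22.6 ± 3.96 CPM in knockout livers and 24.2 ± 1.38 CPM in wild type livers (SD, n = 3 each). Fam132b, which encodes erythroferrone, the erythroblast signal that lowers hepcidin, was chosen after its values were seen, stood at 0.331 CPM or less in every liver and was not tested.

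Apart from Hamp, whose groups overlapped, the BMP targets among the 10 are Id1 and Smad7. Both were higher in each knockout liver than in each wild type liver, though neither passed the threshold over all genes. Id1, an inhibitor of helix-loop-helix transcription factors and a standard readout of BMP signalling, had 9.52, 5.57 and 6.09 CPM in knockout livers, against 4.41, 3.04 and 5.14 CPM in wild type livers. Knockout replicate 1 stood well above the rest, and knockout replicate 2 lay close to wild type replicate 3. Id1 had a log2 fold change of 0.76 ± 0.26 (SE, unadjusted p = 0.0187, edgeR adjusted p = 0.225). Its 95% interval, unadjusted, ran from 0.16 to 1.36. Without knockout replicate 1 it was 0.48 (edgeR adjusted p = 0.388). Smad7, whose product blocks the receptors of BMP and TGF-beta, had 13.9, 18.3 and 14.2 CPM in knockout livers, against 9.62, 7.81 and 11.7 CPM in wild type livers. The groups were separate, with knockout replicate 2 highest and wild type replicate 2 lowest. Smad7 had a log2 fold change of 0.68 ± 0.18 (SE, unadjusted p = 0.00418, edgeR adjusted p = 0.137), with an unadjusted 95% interval from 0.28 to 1.08. DESeq2 gave 0.68 ± 0.20 (SE) with an adjusted p of 0.0253, the 1 setting in which Smad7 passed. The counts behind these values were 65 to 201 per library for Id1 and 167 to 336 for Smad7. Smad7 overlaps Gm41776 in GRCm38.p6.

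Smad6, Id2, Id3 and Atoh8, also BMP targets, overlapped between the genotypes. Smad6, which encodes the inhibitory SMAD most selective for BMP signals, had 4.40, 7.04 and 8.49 CPM in knockout livers and 8.19, 6.27 and 6.29 CPM in wild type livers. Its log2 fold change was -0.06 ± 0.24 (SE, edgeR adjusted p = 0.939). Knockout replicate 1, the highest liver for Id1, was the lowest for Smad6. Id2, a relative of Id1, averaged 140 ± 29.2 CPM in knockout livers and 120 ± 48.2 CPM in wild type livers, and Id3 averaged 47.9 ± 12.0 and 52.1 ± 24.7 CPM in that order (SD, n = 3 each). Wild type replicate 1 was the highest of all 6 for both, at 173 CPM of Id2 and 80.6 CPM of Id3. Atoh8, a transcription factor that BMP signals induce in liver, had 16.0, 15.8 and 13.6 CPM in knockout livers and 20.3, 14.1 and 22.2 CPM in wild type livers, a log2 fold change of -0.32 ± 0.17 (SE, edgeR adjusted p = 0.418).

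Upstream of the targets, most receptors and SMADs overlapped between the genotypes. The type I receptors Bmpr1a, at 42.3 ± 1.60 CPM in knockout livers and 41.2 ± 2.24 CPM in wild type livers, and Acvr1, at 17.5 ± 2.17 and 17.0 ± 1.85 CPM in that order, had log2 fold changes of 0.038 ± 0.089 and 0.042 ± 0.13 (SE). Hfe2, the hemojuvelin gene, averaged 65.0 ± 15.1 CPM in knockout livers and 77.6 ± 20.8 CPM in wild type livers (SD, n = 3 each). Tmprss6, whose protease cleaves hemojuvelin and so lowers hepcidin, averaged 575 ± 57.3 and 615 ± 20.6 CPM in that order (edgeR adjusted p = 0.728). Bmpr2, Eng, Smad1 and Smad4 also overlapped between the genotypes, with edgeR adjusted p of 0.827, 0.945, 0.975 and 0.960 in that order. Smad5, which carries the signal to the nucleus, had 46.3, 48.0 and 59.1 CPM in knockout livers, against 41.5, 41.9 and 41.5 CPM in wild type livers. These groups were separate, yet the log2 fold change of 0.30 ± 0.11 (SE, edgeR adjusted p = 0.250) was not past the threshold.

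**Figure D3:**
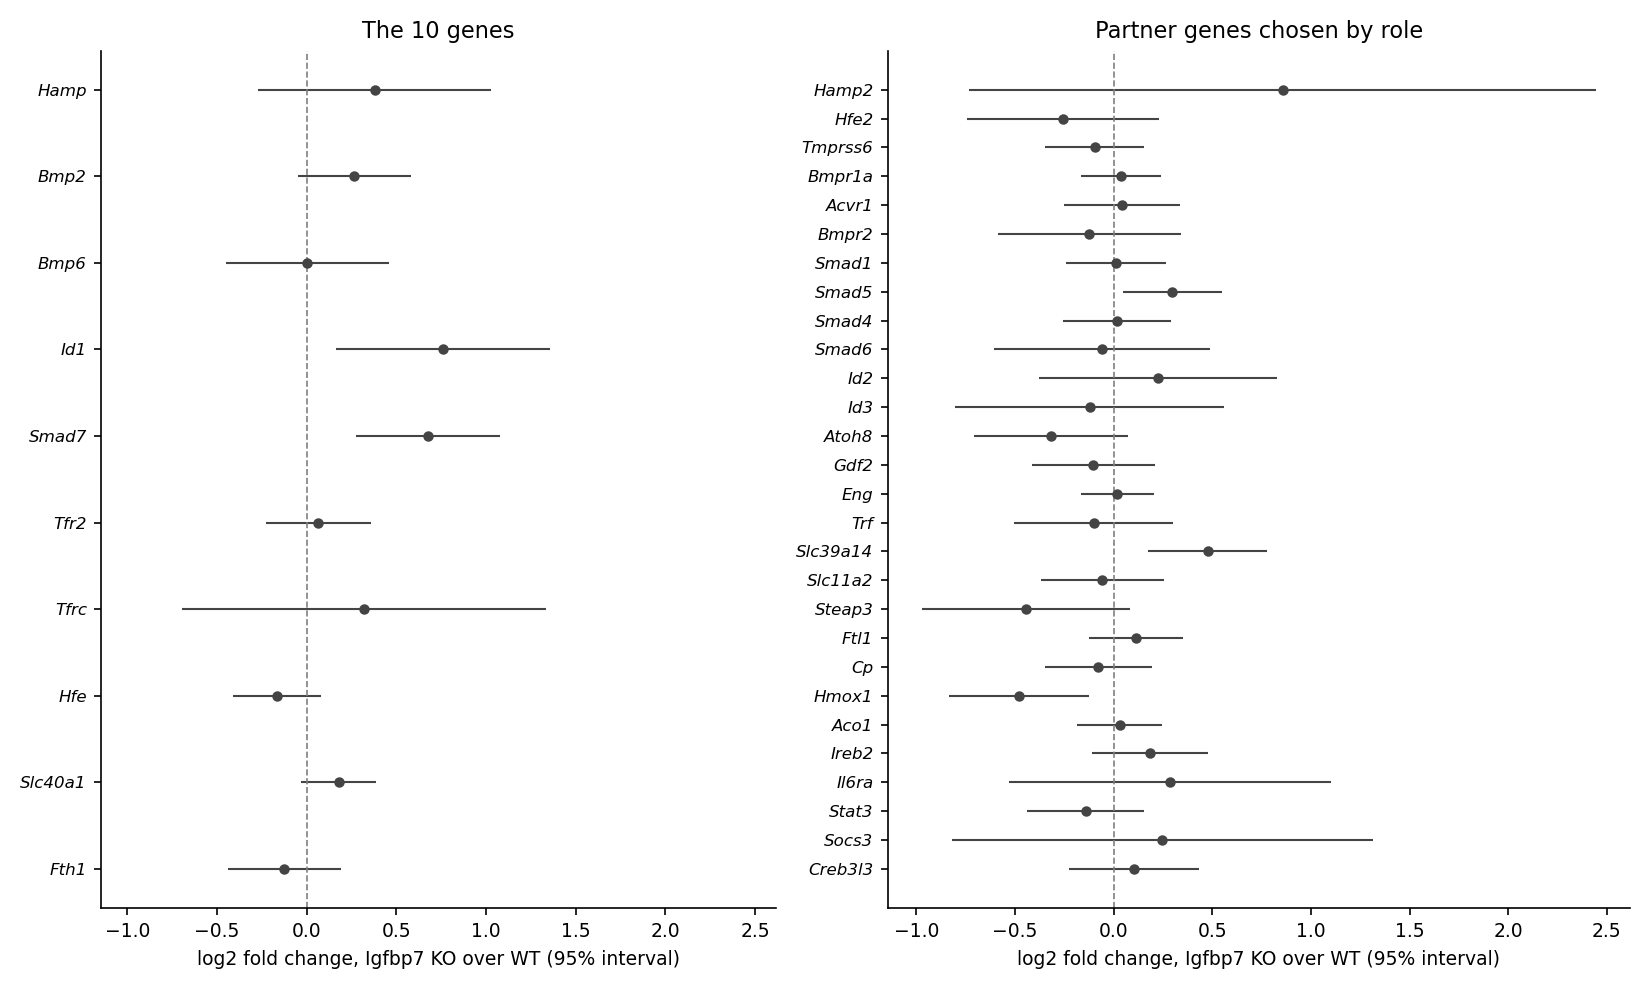
Log2 fold changes, knockout over wild type, with unadjusted 95% intervals from edgeR, for the 10 genes (left) and 28 partner genes picked by role (right), with a dashed line at no difference. Intervals clear of 0 are those of Id1 and Smad7 on the left and of Smad5, Slc39a14 and Hmox1 on the right, and none of these passed the threshold after adjustment over all genes.

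Of the list of receptors, co-receptors and inhibitors, 16 of 18 were tested, edgeR called 0 and DESeq2 0, and an unadjusted p under 0.05 was met by 2 higher genes and 0 lower ones. These were Acvr2b, an activin receptor, at 3.18 ± 0.304 CPM in knockout livers and 1.90 ± 0.331 CPM in wild type livers, and Chrd, the BMP antagonist chordin, at 7.57 ± 1.13 and 5.41 ± 0.0735 CPM in that order (SD, n = 3 each). Both were chosen after their values were seen. Of the 11 SMADs and target genes, all tested, edgeR and DESeq2 called 0 and 2 were higher at an unadjusted p under 0.05, Smad5 and Smurf2. Smurf2, a ubiquitin ligase that acts on SMADs, named after its values were seen, had 71.8, 70.5 and 76.8 CPM in knockout livers, against 62.8, 63.5 and 65.6 CPM in wild type livers, and the groups were separate. The 2 list medians of the log2 fold change were -0.05 and 0.018, beside 0.0013 over all genes. For comparison, 8.10% of all genes tested met the unadjusted cutoff with knockout higher and 7.35% with knockout lower. Calls made up 0.216% of all genes in edgeR and 3.50% in DESeq2.

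Tfr2 and Hfe, the sensors of transferrin-bound iron on hepatocytes, overlapped between the genotypes. Tfr2 had 549, 510 and 410 CPM in knockout livers, against 503, 445 and 457 CPM in wild type livers. Knockout livers held both the highest and the lowest value, and the log2 fold change was 0.064 ± 0.13 (SE, edgeR adjusted p = 0.863), with a 95% interval from -0.23 to 0.36. Hfe had 52.8, 49.4 and 46.9 CPM in knockout livers, against 63.3, 53.3 and 50.4 CPM in wild type livers. The groups overlapped, with wild type replicate 1 highest, and the log2 fold change was -0.16 ± 0.11 (SE, edgeR adjusted p = 0.519), with a 95% interval from -0.41 to 0.082. It was -0.06 without wild type replicate 1.

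Tfrc, the receptor through which most cells take up transferrin, varied more among knockout livers than between the genotypes. It had 29.5, 20.5 and 79.8 CPM in knockout livers, against 25.8, 44.9 and 33.2 CPM in wild type livers. Knockout replicate 3 was the highest of all livers and knockout replicate 2 the lowest. The log2 fold change was 0.32 ± 0.45 (SE, edgeR adjusted p = 0.788), with a 95% interval from -0.69 to 1.33. Without knockout replicate 3 it turned to -0.47 (edgeR adjusted p = 0.423), and with the clock score as a covariate it was 0.0055. Erythroblasts also carry much of this receptor. Of their 10 markers 8 were listed, and the 4 globin genes among them, near-identical copies, were at 0 in all 6 libraries. The summed CPM of the 8 was 160 to 186 in knockout livers and 196 to 225 in wild type livers, nearly all of it from Alas2. Alas2, the erythroid enzyme of heme synthesis, had 183, 185 and 159 CPM in knockout livers and 223, 217 and 195 CPM in wild type livers. Slc4a1, a marker of red cell precursors, stood at 0.213 CPM or less in every liver. Both were chosen after their values were seen, and the part of such cells in the Tfrc values was not tested.

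Iron regulatory proteins bind a hairpin, the iron-responsive element, in the transcripts of Fth1, Slc40a1 and Tfrc. When iron is scarce they block translation of ferritin and ferroportin from the untranslated leader and protect the Tfrc transcript from decay through elements behind its coding region. The elements were found in GENCODE M21 transcripts as a C, 5 bases, CAGTG and any base, and 5 bases pairing with the first 5. They are shown in lower case with the loop letters CAGTG in capitals, 29 bases each, GRCm38.
Fth1, 5′ UTR, chr19:9982732-9982760, plus strand: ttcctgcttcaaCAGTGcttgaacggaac
Slc40a1, 5′ UTR, chr1:45925465-45925493, minus strand: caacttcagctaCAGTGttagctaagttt
Tfrc, 3′ UTR, chr16:32631219-32631247, plus strand: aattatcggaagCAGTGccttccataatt
Tfrc, 3′ UTR, chr16:32631598-32631626, plus strand: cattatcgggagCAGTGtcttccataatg
Tfrc, 3′ UTR, chr16:32631663-32631691, plus strand: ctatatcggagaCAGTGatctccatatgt
Tfrc, 3′ UTR, chr16:32631710-32631738, plus strand: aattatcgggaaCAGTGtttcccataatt
The pattern matched 4 times in Tfrc and 1 time each in Fth1 and Slc40a1. The genes of the proteins that bind it did not pass the threshold, with Aco1 at 343 and 335 CPM and Ireb2 at 141 and 124 CPM on average in knockout and wild type livers (edgeR adjusted p = 0.912 and 0.547).

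Fth1, the heavy chain of ferritin, had 990, 853 and 948 CPM in knockout livers, against 940, 1195 and 906 CPM in wild type livers. The groups overlapped, with wild type replicate 2 alone above 1000 CPM. The log2 fold change was -0.12 ± 0.14 (SE, edgeR adjusted p = 0.723), with a 95% interval from -0.44 to 0.19, and it was 0.0076 without wild type replicate 2. Fth1 has processed pseudogenes, among them Fth-ps2 and Fth-ps3 in GRCm38.p6, so reads placed at several positions may be missing from its counts. Ftl1, the light chain, averaged 574 ± 48.7 CPM in knockout livers and 531 ± 20.9 CPM in wild type livers (SD, n = 3 each, edgeR adjusted p = 0.660).

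Slc40a1 encodes ferroportin, the exporter that hepcidin blocks, made in hepatocytes and most strongly in iron-recycling macrophages. It had 267, 258 and 289 CPM in knockout livers, against 230, 253 and 236 CPM in wild type livers. All 3 knockout livers lay above all 3 wild type livers, the nearest pair being knockout replicate 2 and wild type replicate 2. The log2 fold change was 0.18 ± 0.092 (SE, edgeR adjusted p = 0.397), with a 95% interval from -0.03 to 0.39. Kupffer cell and macrophage markers lay the other way. All 12 had negative log2 fold changes and an unadjusted p under 0.05, at a median of -0.71. After adjustment over all genes edgeR called 0 and limma-voom 0, whereas DESeq2 called 10 lower. Of all genes, 7.35% were lower at that unadjusted p, edgeR called 0.216% and DESeq2 3.50%. The summed CPM of the 12 markers was 368 to 580 in knockout livers and 701 to 792 in wild type livers, and none of the 12 was at 0. Knockout replicate 3, the highest in Slc40a1, had the highest sum of the knockout livers. Wild type livers went the other way, with the highest sum, 792 CPM, in replicate 1, the lowest in Slc40a1 at 230 CPM. The part of macrophages in the level of Slc40a1 was not tested.

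The wider set of genes for iron uptake, storage, export and heme recovery was mixed. Of 23 tested genes of 25 in the list, edgeR called 0, and an unadjusted p under 0.05 was met by 3 higher genes and 3 lower ones. Their median log2 fold change was -0.06. DESeq2 called 2 of them, Slc39a14 higher and Hpx lower. Its share of calls among all genes tested was 3.50%, and that of edgeR 0.216%. The unadjusted cutoff was met by 8.10% of all genes with knockout higher and by 7.35% with knockout lower. Slc39a14, which brings iron not bound to transferrin into hepatocytes, had 411, 405 and 446 CPM in knockout livers, against 245, 327 and 335 CPM in wild type livers. The groups were separate, with wild type replicate 1 lowest, and the log2 fold change was 0.48 ± 0.13 (SE, edgeR adjusted p = 0.152). Hpx, the plasma heme carrier hemopexin, chosen after its values were seen, had 3746, 3193 and 3078 CPM in knockout livers, against 5011, 4212 and 4854 CPM in wild type livers. For Hpx it was -0.49 ± 0.15 (SE, edgeR adjusted p = 0.179).

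Hmox1, heme oxygenase, which frees iron from heme and is strong in macrophages, had 17.6, 12.0 and 17.3 CPM in knockout livers, against 23.9, 21.4 and 20.1 CPM in wild type livers. The groups were separate, and the log2 fold change was -0.48 ± 0.16 (SE, edgeR adjusted p = 0.199), beside the lower macrophage markers given above, whose part was not tested. Cd163, the macrophage receptor for hemoglobin bound to haptoglobin, chosen after its values were seen, stood at 26.4 ± 12.2 CPM in knockout livers and 21.4 ± 3.93 CPM in wild type livers. Trf, the gene for transferrin, averaged 15036 ± 1498 CPM in knockout livers and 16115 ± 375 CPM in wild type livers, and Cp, the ferroxidase ceruloplasmin, 1482 ± 139 and 1564 ± 46.8 CPM in that order (SD, n = 3 each). Slc11a2, the iron transporter DMT1, and Steap3, a ferrireductase, had edgeR adjusted p of 0.886 and 0.402.

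Of 5 genes of iron and oxygen sensing, all tested, edgeR and DESeq2 called 0 and 1 was higher at an unadjusted p under 0.05. That was Epas1, which encodes HIF-2 alpha and was chosen after its values were seen, at 241 ± 56.3 CPM in knockout livers and 173 ± 3.12 CPM in wild type livers (SD, n = 3 each), with 306 CPM in knockout replicate 1. Over the 6 pathway lists together, 72 of 78 genes were tested, edgeR called 0, DESeq2 2 and limma-voom 0, and an unadjusted p under 0.05 was met by 8 higher genes and 3 lower ones. That is 15.3% of those tested, near the 15.4% over all genes. Separate groups stood in 20.8% of them, near the 20.7% over all genes.

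**Figure D4:**
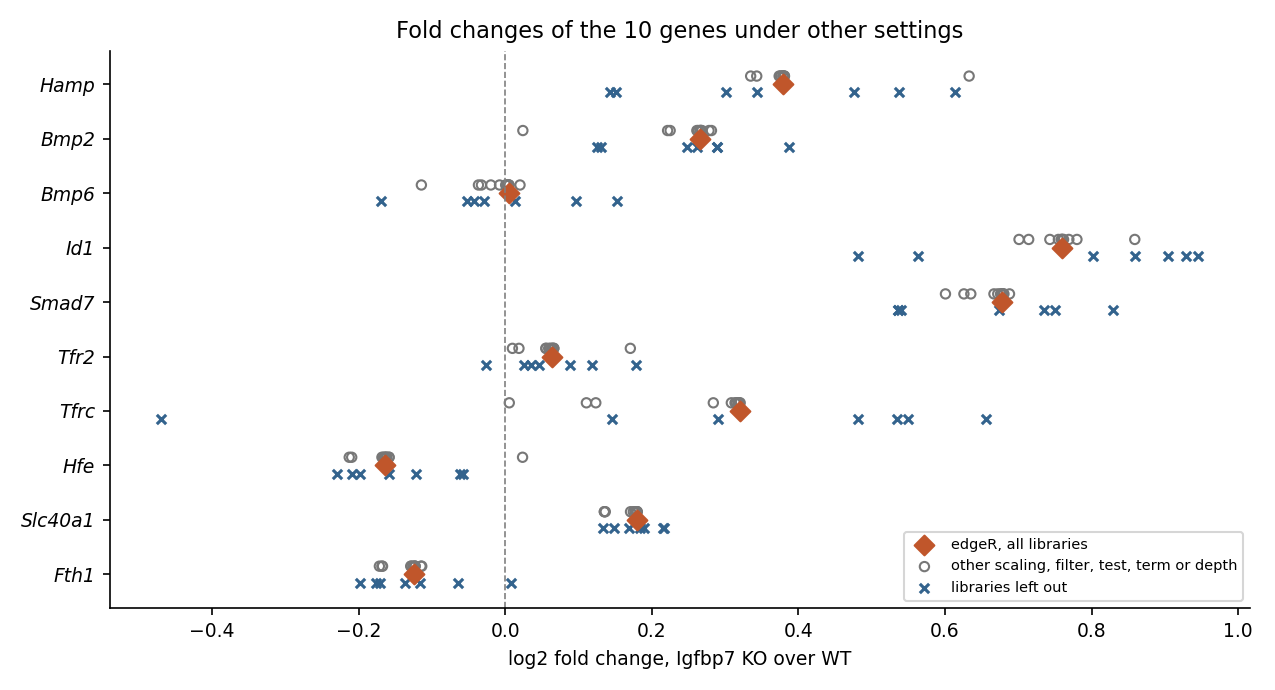
Log2 fold changes of the 10 genes, knockout over wild type, from edgeR with all libraries (diamonds), under other scalings, filters, tests, terms or depth (circles) and with libraries left out (crosses). Id1 and Smad7 stay above 0.48 throughout, whereas Tfrc runs from -0.47 to 0.66 and Bmp6 lies on both sides of 0.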

How the data were processed

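The authors deposited whole-number read counts per gene symbol, 1 table per library, as raw values. Per the submitters' processing notes the tools were HTSeq, TopHat2 2.0.8b and CASAVA 1.8.2, and the builds named, with no role, are mm9 and hg19. The sources used here do not give the annotation or whether counting used strand. Rows that name no gene were left out. They hold 9.65% to 12.5% of uniquely placed reads as outside genes and 0.594% to 0.662% as ambiguous. Reads placed at several positions are in no gene count. Their row held 1.86, 2.65 and 1.64 times the gene counts in knockout replicates 1 to 3. In wild type replicates 1 to 3 it held 2.13, 1.49 and 1.86 times the gene counts. Whether that row counts reads or placements is not stated.

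Counts were tested with edgeR 4.0.16 (R 4.3.3): filterByExpr with a minimum count of 10, TMM scaling, a quasi-likelihood fit of genotype, and Benjamini-Hochberg adjustment over 12522 genes, at a threshold of 0.05. Intervals are 95% and unadjusted. Counting error is widest where counts are low, as for Bmp6 and Id1, and the spread between samples adds to it. Alternatives used DESeq2 1.42.0, limma-voom (limma 3.58.1), other scalings, filters, depth, terms and libraries.

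Genes, lists and tests were chosen with earlier results of these data known. Named were the 10 genes, Igfbp7, partners picked by role, and list members past the threshold. Any other gene is marked in the text as picked with its values known. Gene names came from RefSeq (GRCm38.p6) and sequences from RefSeq and GENCODE M21 (GRCm38), builds other than mm9.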

Additional observations from a re-analysis of the deposited data

How the results depend on the processing

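By edgeR with all libraries 27 genes were called over all genes. That count was 133 with no filter, 438 by DESeq2, 68 with robust estimation, 1 at a threshold of 0.01, 1 with the clock score as a covariate and 3 (without knockout replicate 2) to 36 (without wild type replicate 3) with 1 library left out. With the replicate block it was 1. Same-numbered livers did not deviate together (r = -0.083, -0.098 and -0.041 for replicates 1 to 3), and no knockout library correlated best with the wild type library of its own number. With both knockout replicate 2 and wild type replicate 1 removed, the livers highest in Hamp, Socs3 and Lcn2 within their genotype and an alternative chosen after seeing the data, it was 1. Of the 10 genes, DESeq2 called 1 and every other setting 0, and of the pathway lists DESeq2 called 2 and every other setting 0. Why the counts differ was not tested. The sum of Hamp and Hamp2 kept its direction in 18 settings, at 0.16 to 0.64, past the threshold in 0. So did Hamp, Bmp2, Id1, Smad7 and Slc40a1, of which Smad7 passed by DESeq2. Bmp6 changed direction with upper-quartile scaling (-0.037), total counts (-0.032), limma-voom (-0.020), the replicate block (-0.0078), the clock score (-0.11) and both livers left out (-0.043), and ran from -0.17 to 0.15 with 1 library left out. With 1 library left out Tfr2 ran from -0.026 to 0.18, Tfrc from -0.47 to 0.66 and Fth1 from -0.20 to 0.0076. Hfe was 0.024 with the clock score. Bmp6 had 79 to 120 counts per library, and the part of counting error in its changes of direction was not tested.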

Other observations

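Knockout replicate 1 stood apart in Smad9 and Id1, and the genes of this paragraph were picked here after their values were seen. Smad9, which encodes SMAD8, had 60.8 CPM there, against 25.3 and 27.2 CPM in the other knockout livers and 19.9, 29.9 and 22.6 CPM in wild type livers. Id1 was highest in the same liver and Hamp, Smad6 and Bmp6 were the lowest of the knockout livers there. Bmp6 did not stand apart, with 80 counts there against 87 in knockout replicate 2. Other BMP genes were mixed in that liver. Bmpr1a, Acvr1, Eng, Id2, Id3 and Atoh8 lay within the wild type range. Smad1 (20.6 CPM), Smad5 (46.3 CPM), Smad4 (46.0 CPM) and Bmpr2 (13.0 CPM) lay above it, Smad4 and Bmpr2 only just. Gdf2 (18.7 CPM) and Smad6 (4.40 CPM) lay below it. Gdf15, a stress-induced relative of the BMPs, had 4.92, 0.382 and 0.982 CPM in knockout livers and 2.13, 1.08 and 2.60 CPM in wild type livers. Scara5, a receptor that takes up ferritin, had 49.3, 35.4 and 23.0 CPM in knockout livers and 20.2, 21.6 and 41.5 CPM in wild type livers, so its spread within each genotype was larger than the difference between them.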
